A study of Homo sapiens with 96 samples.

Results

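GSK591 and MS023 were set directly against each other after 2 days of treatment, on the alternative splicing events that both inhibitors had in common. A549, a lung adenocarcinoma cell line, received 1 µM GSK591, an inhibitor of PRMT5, or 1 µM MS023, an inhibitor of the Type I PRMTs, and poly(A)-RNA was sequenced from 3 libraries of each group. These 6 libraries are among 30 poly(A)-RNA libraries of the time course and 96 samples in the series. Beside them stand 3 libraries each of 0.01% DMSO (4 days), of both inhibitors at 1 µM each (2 days), and of either inhibitor at 4 days. The deposited tables set each inhibitor against DMSO and hold read counts per library, so a direct comparison was made on events with the same type, chromosome, strand, and coordinates in the GSK591 and the MS023 table. Of 132452 and 132442 events listed, 107488 in 12199 genes were shared, and 91717 had at least 10 reads in each of the 6 libraries and were tested.

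PRMTs transfer methyl groups to arginine. Type I enzymes such as PRMT1 and CARM1 form asymmetric dimethylarginine, and PRMT5 forms the symmetric mark on proteins that include the Sm proteins of the spliceosome. Many RNA-binding proteins carry arginine-rich stretches that both classes can modify. An event compares a pair of forms of a transcript, and Ψ is the share of transcripts with the inclusion form, estimated from reads divided by the effective length of each form. For a skipped exon (SE) the inclusion form holds the exon. For mutually exclusive exons (MXE) it holds the exon that comes first in the transcript. For alternative 5′ and 3′ splice sites (A5SS and A3SS) it is the longer exon, which uses the downstream donor or the upstream acceptor, and for a retained intron (RI) it keeps the intron. ΔΨ is the mean Ψ with GSK591 minus the mean Ψ with MS023 throughout, and is given with the SE of that difference over 3 libraries against 3. An event was called where the quasi-binomial test gave an adjusted p below 0.05 (Benjamini-Hochberg within the event type).

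Summed over events, the counts per library were 43432070 to 56398862 for SE and 2761811 to 4131360 for A5SS. Events overlap, so a read can count in several of them and these sums are not library depths. GSK591 library a stood apart from libraries b and c. Its mean Ψ over tested MXE was 0.457 against 0.476 and 0.475, and over RI it was 0.402 against 0.414 and 0.415. Replicate pairs differed by 1.87 to 6.06 times the sampling variance, with the highest values for pairs with that library, so none was a duplicate. Results that change without it are given both ways below. Of 9 epithelial marker genes 6 had tested events, among them EPCAM, KRT8, and KRT18, while none of 4 blood and 4 fibroblast markers had any.

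The direct comparison called 9546 of 91717 events (10.4%), in 4216 of 10486 genes. The inclusion form was higher with GSK591 in 4533 (4.94%) and lower in 5013 (5.47%). The balance differed between event types. Called skipped exons were mostly lower with GSK591 than with MS023 (4213, 6.61% of tested, against 2237, 3.51%). Longer exons from alternative sites were mostly higher with GSK591, for A5SS in 522 events (14.1%) against 251 (6.76%) and for A3SS in 331 (5.82%) against 148 (2.6%). MXE were split almost evenly, with 275 higher (1.86%) and 268 lower (1.81%). RI had the largest called share of the 5 types, with 1168 higher (30.7%) and 133 lower (3.5%). Calls fell in 1 event type for 3034 genes and in all 5 for 13 genes, among them TPM1 (tropomyosin), MYL6 (a myosin light chain), CD46 (a complement regulator), and ABCC3 (a drug transporter).

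**Figure D1:**
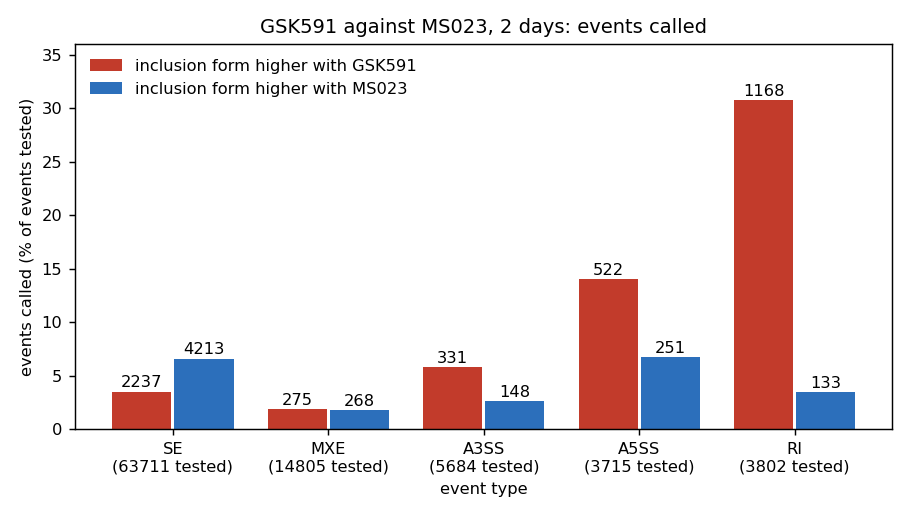
Share of tested events called between GSK591 and MS023 at 2 days (y axis, %) for each event type (x axis, with the number tested), split by the inhibitor with the higher inclusion form. Numbers over the bars are events, from 2237 against 4213 for SE to 1168 against 133 for RI.

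Of 63711 SE events tested, 6450 were called (10.1%), which are 5882 distinct exons in 3495 genes. The difference was at least 0.1 in 2783 of them, 919 higher and 1864 lower with GSK591. Over the events called lower with GSK591, the median Ψ was 0.783 with GSK591 and 0.936 with MS023, beside 0.918 with DMSO and 0.801 with both inhibitors. For the events called higher these medians were 0.918, 0.740, 0.858, and 0.840. Calls numbered 4722 without GSK591 library a, and 3324, 3721, and 3504 without MS023 library a, b, or c. limma on log2 odds, which gives all events the same weight, called 64. On simulated counts the share of false calls for SE was above the nominal level.

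Named events are those with the largest absolute ΔΨ among called events with at least 20 reads in each library and no overlap between the groups, so their separation was part of their choice. The exons of FGFR3 and SNAP25 (higher with GSK591) and of ULK3 and CACNA1G (lower) are shown because they carry large differences and are coding. That of ULK3 is coding in some annotated transcripts and untranslated in others. The exon is in capitals, with 20 bases of the intron before it and 6 after it, on hg19.
FGFR3 exon, chr4:1804621-1804797, plus strand: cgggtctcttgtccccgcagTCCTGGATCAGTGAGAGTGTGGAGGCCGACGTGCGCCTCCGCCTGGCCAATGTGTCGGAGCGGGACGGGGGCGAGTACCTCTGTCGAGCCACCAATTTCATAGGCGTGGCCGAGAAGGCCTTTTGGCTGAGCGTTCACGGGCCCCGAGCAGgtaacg
SNAP25 exon, chr20:10265352-10265426, plus strand: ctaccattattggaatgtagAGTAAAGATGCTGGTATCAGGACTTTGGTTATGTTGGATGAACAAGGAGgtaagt
ULK3 exon, chr15:75130487-75130534, minus strand: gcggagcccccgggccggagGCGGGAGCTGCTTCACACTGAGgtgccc
CACNA1G exon, chr17:48680161-48680255, plus strand: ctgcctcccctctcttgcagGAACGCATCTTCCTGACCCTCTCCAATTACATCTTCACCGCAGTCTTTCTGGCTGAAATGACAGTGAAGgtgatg

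The exon of FGFR3, a receptor for fibroblast growth factors, had Ψ of 1, 0.878, and 1 in the 3 GSK591 libraries and 0.240, 0.304, and 0.243 in the MS023 libraries. Scored as SE, it was close to fully included with GSK591 and mostly left out with MS023, with no overlap (ΔΨ = 0.697 ± 0.0458, adjusted p = 1.85e-08). FGFR3 is on the list of genes with known exclusive exons, and its 2 called events were this SE and an MXE, both higher with GSK591. The values may thus reflect a choice between exons rather than plain skipping, which was not tested. DMSO libraries lay between, at 0.403, 0.364, and 0.469. The 151-nt coding exon was read 22 to 85 times per library, so single values are coarse.

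For SNAP25, a SNARE protein of vesicle fusion, a 49-nt coding exon had Ψ of 0.753, 0.787, and 0.746 with GSK591 and 0.169, 0.284, and 0.158 with MS023. All GSK591 values were above all MS023 values (ΔΨ = 0.558 ± 0.0422, adjusted p = 1.25e-11). DMSO libraries (0.758, 0.705, and 0.741) were near GSK591, and libraries with both inhibitors (0.450, 0.530, and 0.479) lay between. MOK, a protein kinase, showed GSK591 values of 0.530, 0.791, and 0.828 and MS023 values of 0.169, 0.186, and 0.163. Here libraries with both inhibitors (0.143, 0.124, and 0.195) were as low as those with MS023 (ΔΨ = 0.544 ± 0.0939, adjusted p = 2.22e-09).

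CUL2, a scaffold of ubiquitin ligases, differed at a 106-nt exon of its untranslated region, with Ψ of 0.925, 0.778, and 0.903 against 0.251, 0.233, and 0.451. Its DMSO libraries (0.205, 0.369, and 0.449) were near MS023 (ΔΨ = 0.557 ± 0.0834, adjusted p = 1.97e-09). CCDC84, a protein of the minor spliceosome, had GSK591 values of 0.490, 0.590, and 1 against 0.114, 0.106, and 0.150 for a partly coding exon of 213 nt. The GSK591 libraries spread widely but stayed above the MS023 libraries (ΔΨ = 0.570 ± 0.157, adjusted p = 9.98e-08).

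Among the named exons lower with GSK591, the largest difference was in ULK3, a protein kinase of the family of autophagy kinases. Its 22-nt exon, at chromosome 15, had Ψ of 0.262, 0.222, and 0.261 with GSK591 and 0.907, 0.976, and 0.942 with MS023 (ΔΨ = -0.693 ± 0.0237, adjusted p = 7.42e-15). DMSO libraries were as high as MS023 (0.937, 0.822, and 1), and those with both inhibitors as low as GSK591 (0.186, 0.195, and 0.289). Only 4 of the 9 bases at its 5′ splice site match the consensus, and the intron before it has 92 nt.

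SDR39U1, of the short-chain dehydrogenase family, had Ψ of 0.173, 0.203, and 0.160 with GSK591 against 0.778, 0.780, and 0.841 for a 152-nt exon. Its replicates were tight and the groups far apart (ΔΨ = -0.621 ± 0.0242, adjusted p = 1.28e-27). RHPN1 had 0.250, 0.229, and 0.148 against 0.775, 0.764, and 0.876, again with DMSO (0.853, 0.825, and 0.936) near MS023. ITGB1BP1, which binds integrin tails, had 0.181, 0.0187, and 0.0689 against 0.621, 0.675, and 0.736 for an exon of its untranslated region. Its DMSO libraries lay between (0.413, 0.344, and 0.355). CACNA1G, the pore subunit of a T-type calcium channel, had 0.215, 0.398, and 0.446 against 0.930, 0.929, and 0.907 for a 69-nt coding exon that keeps the reading frame (ΔΨ = -0.569 ± 0.071, adjusted p = 1.4e-13).

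**Figure D2:**
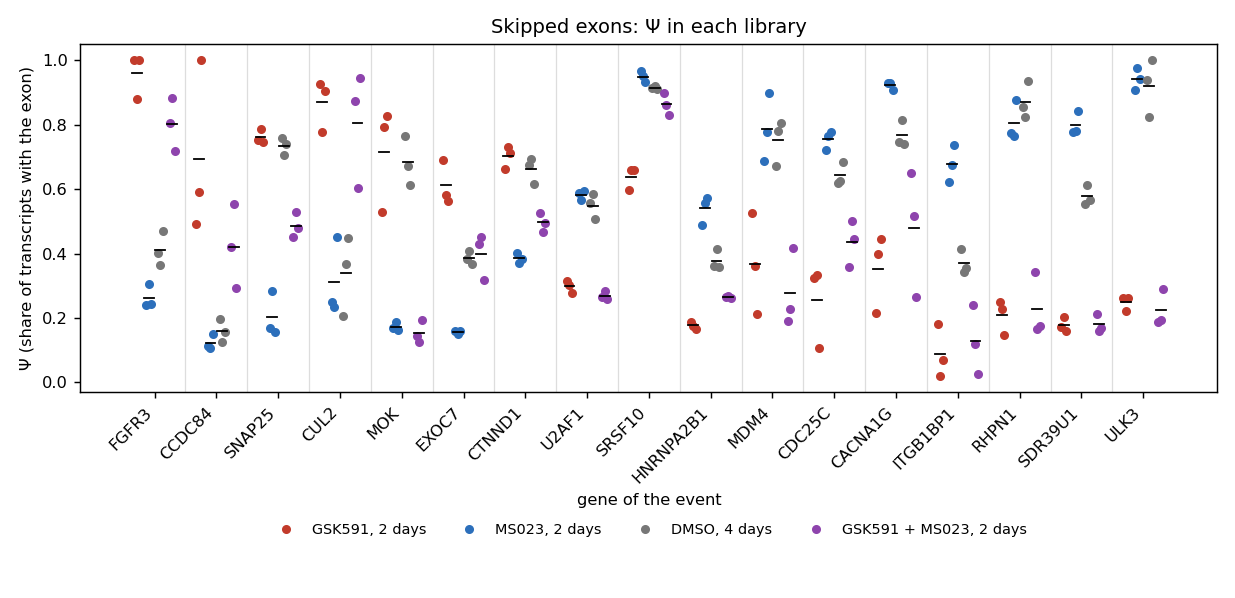
Ψ of named skipped exons (x axis, by gene) in each library (points) of GSK591, MS023, and both inhibitors at 2 days and of DMSO at 4 days, with black bars for the group means. GSK591 and MS023 libraries do not overlap for any exon shown, since the naming rule required it, and DMSO libraries lie near GSK591 for SNAP25 and CTNND1 and near MS023 for ULK3 and U2AF1.

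Features that the test did not use are given here as descriptions, without a test. Exons called in either direction had more reads than all tested exons, with medians of 251.5 (higher) and 246 (lower) against 164 in the library with the fewest reads. They were also less fully included, with a median Ψ with DMSO of 0.882 (higher) and 0.927 (lower) against 0.987 over all distinct exons tested. The part of read number and of inclusion level in what follows was not tested. For exons lower with GSK591, the median length was 103 nt, against 136 nt for exons higher with GSK591 and 119 nt for the 48730 distinct exons tested. Their flanking introns were shorter, with medians of 1154 and 1138.5 nt before and after the exon, against 1816.5 and 1733.5 nt for exons higher with GSK591 and 2031 and 1885 nt for all. Their 5′ splice sites were further from the consensus CAGGTAAGT, read on the strand of the gene: 29.7% matched at 7 or more of 9 bases, against 41.9% and 40.3%. Exons higher with GSK591 stood out in another way, with 62.3% coding throughout, against 76.4% of those lower and 78.2% of all.

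Across all tested exons the share called lower with GSK591 fell from 12.2% at 4 matching bases (1094 exons) to 8.14% at 6 (19083), 4.44% at 8 (4261), and 2.01% at 9 (299), while the share called higher stayed between 3.9% and 4.84% over the same range. The 162 exons with 3 or fewer matching bases did not follow this order, with 8.02% called in each direction. By the shorter flanking intron, the share called lower fell from 15.2% up to 100 nt (3297 exons) to 5.06% above 2000 and up to 5000 nt (9920) and was 6.08% beyond 5000 nt (5490). The share called higher peaked at 6.08% above 200 and up to 500 nt. Median read numbers fell from 231 to 108 from the shortest to the longest introns and were 152.5 to 179 from 4 to 9 matching bases. An RI intron called higher with GSK591 flanked 5.15% of SE events called lower and 2.06% of those called higher, against 1.85% of all tested. With events beside any tested RI intron left out, 64.7% of the 5987 remaining calls were lower with GSK591, close to the 65.3% over all SE calls.

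A5SS had the highest called share of the types other than RI, with 773 of 3715 events (20.8%) in 638 genes, 67.5% of them with the longer exon higher with GSK591. For the events called higher, the median Ψ was 0.481 with GSK591, 0.210 with MS023, 0.235 with DMSO, and 0.452 with both. For those called lower it was 0.615, 0.827, 0.806, and 0.644. Segments of 3 events higher with GSK591 are shown because they had the largest differences of the named A5SS events higher with GSK591 and are coding, that of CCDC84 in some annotated transcripts only. Capitals mark the segment between both donors, so that the upstream donor lies at the start of the capitals and the downstream donor at their end.
CLEC16A extra segment, chr16:11097106-11097171, plus strand: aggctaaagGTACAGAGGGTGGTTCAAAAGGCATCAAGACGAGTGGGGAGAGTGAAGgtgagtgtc
HPS1 extra segment, chr10:100193688-100193748, minus strand: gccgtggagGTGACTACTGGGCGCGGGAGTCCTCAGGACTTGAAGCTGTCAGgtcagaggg
CCDC84 extra segment, chr11:118881985-118882030, plus strand: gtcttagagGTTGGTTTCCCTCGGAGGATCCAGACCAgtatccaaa

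CLEC16A, a regulator of mitophagy, had Ψ of 0.754, 0.921, and 0.814 with GSK591 and 0.263, 0.388, and 0.186 with MS023. The groups did not overlap, and DMSO lay between at 0.544, 0.477, and 0.585 (ΔΨ = 0.551 ± 0.0765, adjusted p = 4.11e-10). Its downstream donor matches the consensus at 7 bases and its upstream donor at 5. In the same order the matches are 7 and 6 for HPS1, and 4 and 6 for CCDC84, where the upstream donor is the better match. HPS1, which takes part in the formation of lysosome-related organelles, had 0.694, 0.643, and 0.866 against 0.188, 0.185, and 0.219. The 43-nt segment was thus in most transcripts with GSK591 and in a minority with MS023 and DMSO (0.290, 0.274, and 0.180).

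The second event in CCDC84 concerned a 28-nt segment, with 0.816, 0.647, and 0.646 against 0.142, 0.214, and 0.192 (ΔΨ = 0.520 ± 0.0606, adjusted p = 2.51e-09). In the opposite direction, FXYD5, a regulator of the sodium pump, had 0.413, 0.419, and 0.391 against 0.813, 0.824, and 0.824, read 841 to 1541 times per library. Replicates differed by at most a few hundredths, and DMSO (0.796, 0.772, and 0.750) was near MS023 (ΔΨ = -0.413 ± 0.00934, adjusted p = 7.94e-23). DALRD3, which takes part in tRNA modification, had Ψ of 1, 1, and 1 with MS023 and of 0.534, 0.713, and 0.521 with GSK591 for the longer exon. Of its 185-nt segment 114 bases are coding, and reads inside the segment count toward the longer form whichever donor was used. TMEM256-PLSCR3, a readthrough of overlapping genes whose reads cannot be assigned with certainty, had 0.342, 0.238, and 0.253 against 0.708, 0.635, and 0.705.

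The match of both donors to the consensus is described here without a test. The downstream donor was the better match in 44.6% of site pairs called higher with GSK591, in 23% of those called lower, and in 37.5% of all tested. The upstream donor was the better match in 24.4%, 46.9%, and 31.3%. Reads of a retained intron count toward the longer form, and their part was not tested. Of A5SS events called higher, 8.24% lay in an RI intron called higher, against 2.8% of all tested. Outside all tested RI introns, 67.6% of called A5SS were higher with GSK591. Calls without any 1 library numbered 555 to 749, and limma on log2 odds called 270. On simulated counts the share of false calls was above the nominal level for A5SS too.

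Of 5684 A3SS events, 479 (8.43%) in 404 genes were called, 69.1% with the longer exon higher with GSK591. The median Ψ of those called higher was 0.422 with GSK591, 0.227 with MS023, 0.268 with DMSO, and 0.378 with both. A segment higher with GSK591 and one lower are shown, as the named events with the largest differences in each direction whose segment holds no untranslated sequence of the annotation. Capitals mark the segment between both acceptors, preceded by 20 bases of the intron.
WBP1 extra segment, chr2:74686545-74686775, plus strand: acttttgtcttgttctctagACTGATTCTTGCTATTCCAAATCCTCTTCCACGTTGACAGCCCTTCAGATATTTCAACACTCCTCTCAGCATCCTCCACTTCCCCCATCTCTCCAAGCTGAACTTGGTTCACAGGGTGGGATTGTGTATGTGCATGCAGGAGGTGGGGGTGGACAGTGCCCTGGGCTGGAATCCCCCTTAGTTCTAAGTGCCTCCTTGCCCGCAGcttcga
FNBP1 extra segment, chr9:132686270-132686325, minus strand: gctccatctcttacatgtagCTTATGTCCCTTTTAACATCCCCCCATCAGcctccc

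WBP1, a protein that binds WW domains, had Ψ of 0.894, 0.911, and 0.859 with GSK591 and 0.384, 0.129, and 0.370 with MS023, with DMSO at 0.430, 0.523, and 0.466. GSK591 libraries were above all others (ΔΨ = 0.594 ± 0.0841, adjusted p = 1.35e-11). RNF216, a ubiquitin ligase, had 0.581, 0.616, and 0.522 against 0.0356, 0.0327, and 0.0781. The longer exon was thus rare with MS023 and with DMSO (0.0706, 0.0702, and 0.0326), and both inhibitors together gave 0.658, 0.700, and 0.707 (ΔΨ = 0.524 ± 0.0311, adjusted p = 6.87e-27).

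FNBP1, a membrane-bending protein, had 0.468, 0.430, and 0.464 against 0.778, 0.793, and 0.862 for a coding segment of 30 nt. The groups did not overlap (ΔΨ = -0.357 ± 0.0287, adjusted p = 0.00011). BMP1, a procollagen proteinase, had 0.531, 0.582, and 0.599 against 0.933, 0.876, and 1. ANKRD18A, a member of a family with close copies whose reads are uncertain, had 0.0618, 0.0966, and 0.115 against 0.482, 1, and 0.216, a wide spread with MS023. OSBPL7, of the oxysterol-binding family, had 0.537, 0.267, and 0.931 against 0.226, 0.146, and 0.0759 at adjusted p = 0.00181. That call was lost without GSK591 library c (adjusted p = 0.0839) and without MS023 library b (0.066) or c (0.0641).

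Acceptors 3 nt apart were seldom called. They made up 658 of the tested A3SS events, of which 5 were called (0.76%), against 6.35% at 4 to 50 nt, 10.7% at 51 to 200 nt, and 14.5% beyond 200 nt. The lowest read number per library had a median of 77 at 3 nt and 215 beyond 200 nt, and its part in this order was not tested. RI introns called higher held 10.6% of A3SS segments called higher, against 2.08% of all tested. Outside tested RI introns 68.5% of called A3SS were higher with GSK591. Without MS023 library b 315 A3SS were called, and limma on log2 odds called 0, with 830 at an unadjusted p under 0.05.

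MXE were called least often, at 543 of 14805 (3.67%), in 358 genes. Of the called MXE, 69.6% contained an exon that was also called as SE, against 23% of all tested MXE. The split between directions was not stable: 59.2% of 669 calls were higher with GSK591 without GSK591 library a, and 41.1% of 419 without library b. Without MS023 library a, b, or c, 247, 259, and 250 were called. The first exon of the pair in UPF3A is shown because it had the largest difference of the named MXE lower with GSK591 and is wholly coding. Capitals mark the exon.
UPF3A exon, chr13:115051974-115052110, plus strand: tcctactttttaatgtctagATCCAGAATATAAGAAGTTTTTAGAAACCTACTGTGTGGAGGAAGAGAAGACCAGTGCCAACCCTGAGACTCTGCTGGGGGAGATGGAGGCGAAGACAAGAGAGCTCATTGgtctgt

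UPF3A, a factor of nonsense-mediated decay, joined this first exon rather than the second in 0.213, 0.148, and 0.262 of transcripts with GSK591 and in 0.826, 0.739, and 0.742 with MS023. MS023 libraries were all above GSK591 libraries, with DMSO at 0.441, 0.692, and 0.441 (ΔΨ = -0.561 ± 0.0437, adjusted p = 0.00121). WHSC1, a histone methyltransferase, had 0.113, 0.357, and 0.278 against 0.757, 0.754, and 0.670. RHPN1 had 0.308, 0.177, and 0.125 against 0.664, 0.643, and 0.721 at the exon already described as SE.

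In the other direction RAD51D, which takes part in homologous recombination, had 0.865, 0.838, and 0.880 against 0.519, 0.402, and 0.499. GSK591 libraries were again the higher group, and DMSO (0.451, 0.427, and 0.493) was near MS023 (ΔΨ = 0.387 ± 0.038, adjusted p = 0.00893). WDR45, an autophagy protein, had 0.860, 0.798, and 0.888 against 0.398, 0.398, and 0.539. POLR2J3, a polymerase subunit with close copies whose reads are uncertain, had 0.850, 0.602, and 0.853 against 0.391, 0.266, and 0.194 at adjusted p = 0.0248, which was lost without GSK591 library a (0.0584) and without MS023 library a, b, or c (0.0633, 0.11, and 0.153). PKM, whose exons 9 and 10 are a known exclusive pair, was read at least 38162 times per library, and no difference was detected for this pair. Exon 9 had Ψ of 0.0201, 0.0218, and 0.0175 with GSK591 and 0.0213, 0.0216, and 0.0206 with MS023 (ΔΨ = -0.00142 ± 0.00129, adjusted p = 0.581). Tested as SE, 3 PKM events were called. The 2 lower with GSK591 were the exons of this pair, each against skipping, and the 1 higher was another exon, with the largest ΔΨ of the 3 (0.152).

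**Figure D3:**
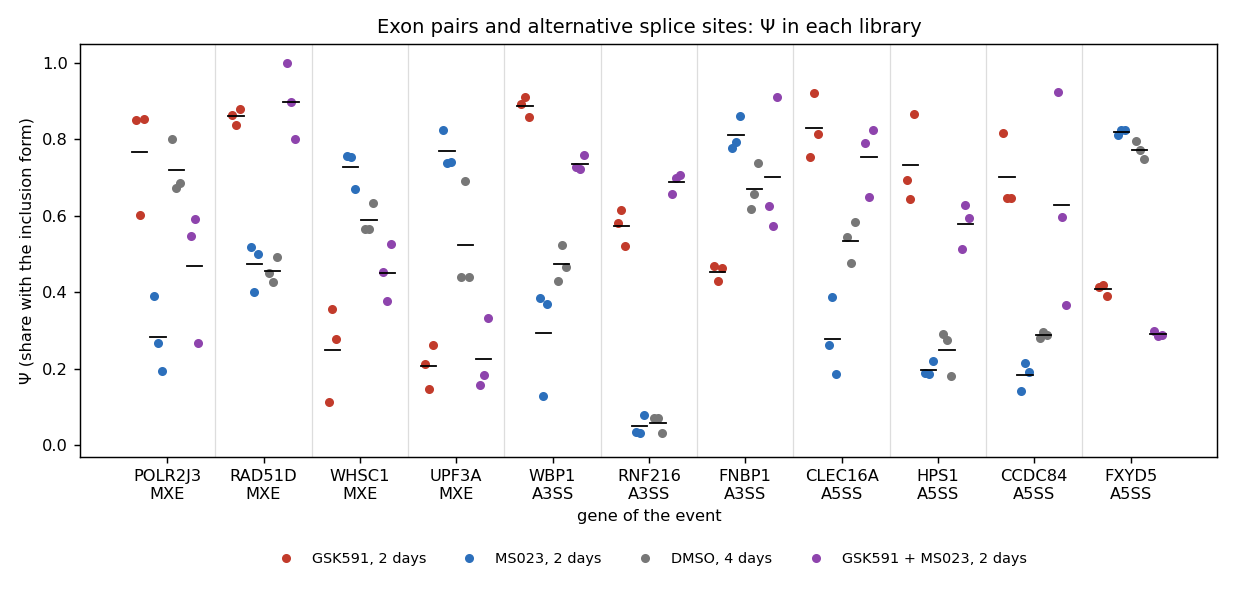
Ψ of named exon pairs and alternative sites (x axis, gene and event type) in each library (points) of GSK591, MS023, and both inhibitors at 2 days and of DMSO at 4 days, with black bars for the group means. GSK591 and MS023 libraries do not overlap, and for RNF216, HPS1, and RAD51D the DMSO libraries lie with MS023.

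RI were the most one-sided type, with 1301 of 3802 called (34.2%) and 89.8% of them higher with GSK591. Without GSK591 library a 1392 were called, 91.1% of them higher. Introns called higher were short, at a median of 224.5 nt, against 515 nt for those called lower and 254 nt for all.

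An intron of KIAA0195 was kept in 0.877, 0.857, and 0.856 of transcripts with GSK591 and in 0.330, 0.232, and 0.242 with MS023. An OSBPL7 intron had 0.748, 0.726, and 0.649 against 0.107, 0.195, and 0.172. Introns in the minority direction were fewer and less sharply separated apart from PSMD11, a proteasome subunit, with 0.130, 0.189, and 0.167 against 0.814, 0.638, and 0.682. PCNXL2 had 0.276, 0.425, and 0.495 against 0.774, 0.628, and 0.941. PPP4R1L had 0.186, 0.355, and 0.238 against 0.794, 0.395, and 0.570 at adjusted p = 0.0447. This call was lost without GSK591 library a or c (0.167 and 0.0877) and without MS023 library a or c (0.135 and 0.118).

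Gene lists of the splicing machinery and of processes linked to PRMTs were counted over all 5 event types, beside the 10.4% called over all events. The lists with the largest called shares were SR proteins and TRA2 (22 of 91 events, 24.2%), genes with known isoform switches between epithelial and mesenchymal cells (114 of 480, 23.8%), and genes with known exclusive exons (69 of 292, 23.6%). hnRNP proteins had 56 of 330 (17%) and other splicing regulators 64 of 405 (15.8%). PRMTs and their cofactors (17 of 130, 13.1%), Sm and U1 snRNP proteins (16 of 123, 13%), splicing kinases (16 of 128, 12.5%), TREX and mRNA export (29 of 241, 12%), mitosis (91 of 764, 11.9%), the core spliceosome (45 of 392, 11.5%), and p53 regulation and apoptosis (30 of 280, 10.7%) were closer to the background. DNA repair (92 of 1139, 8.08%) and nonsense-mediated decay (15 of 182, 8.24%) were below it. The median ΔΨ over tested SE events lay between -0.000862 and 0 in each of the 14 lists, against 0 over all tested SE events. Events overlap within a gene, and single genes held many of the calls, as CTNND1 with 16 of the 114, TPM1 with 15 of the 69, and HNRNPC with 16 of the 56. Read depth and the number of events differ between genes, and their part in these shares was not tested.

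Among the PRMTs and their cofactors, PRMT7, which forms monomethylarginine, had the largest called difference. Its 84-nt exon had Ψ of 0.417, 0.497, and 0.390 with GSK591 and 0.708, 0.862, and 0.724 with MS023, without overlap (ΔΨ = -0.33 ± 0.0586, adjusted p = 1.31e-06). PRMT5, the target of GSK591, had Ψ of 0.547, 0.584, and 0.478 against 0.318, 0.175, and 0.259 for the longer exon of an A5SS. GSK591 libraries were the higher group (ΔΨ = 0.286 ± 0.0518, adjusted p = 0.000347). Reads inside its 371-nt segment, of which 116 bases are coding, count toward the longer form whichever donor was used. An RI event of PRMT5 was called higher too, and its part in this value was not tested. At 4 days the A5SS was not called (ΔΨ = 0.159, adjusted p = 0.0708). PRMT1 and CARM1, both Type I enzymes, had called SE events with differences of at most -0.0362 and 0.0156.

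Sm and U1 proteins had small differences for the most part: called events in SNRPB, SNRPB2, SNRPG, and SNRNP70 reached -0.0257, -0.0103, -0.0219, and -0.0171. The largest was an exon of the SNRPD2 untranslated region, with 0.567, 0.692, and 0.683 against 0.805, 0.882, and 0.806 at adjusted p = 0.0258. An A3SS of SNRPN followed, with 0.932, 0.978, and 0.966 against 0.903, 0.903, and 0.853 at adjusted p = 0.0348. Neither call was stable. That of SNRPD2 was lost without GSK591 library a (0.179) and without MS023 library a, b, or c (0.139, 0.231, and 0.154), and that of SNRPN without GSK591 library b or c (0.146 and 0.161) and without MS023 library a, b, or c (0.0684, 0.0734, and 0.212).

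Several splicing regulators differed in events of their own transcripts. SRSF10, an SR-like protein, had 0.597, 0.659, and 0.660 against 0.966, 0.950, and 0.931 for a 51-nt exon, while libraries with both inhibitors (0.899, 0.861, and 0.830) were closer to MS023 and DMSO (ΔΨ = -0.311 ± 0.0231, adjusted p = 9.85e-14). TRA2A had Ψ of 1, 0.957, and 0.963 against 0.744, 0.805, and 0.723 for the longer exon of an A5SS (ΔΨ = 0.216 ± 0.0279, adjusted p = 0.00194). HNRNPA2B1 differed at an exon of its untranslated region, with 0.189, 0.174, and 0.167 against 0.489, 0.558, and 0.573, and DMSO between (0.362, 0.413, and 0.357). The groups were far apart on 793 to 1949 reads per library (ΔΨ = -0.363 ± 0.0267, adjusted p = 5.31e-41). PTBP2, a neuronal relative of PTBP1, moved the other way at a 34-nt exon, with 0.756, 0.839, and 0.844 against 0.379, 0.530, and 0.504.

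U2AF1, which recognizes the 3′ splice site, has a pair of alternative exons. One of them, scored as SE, had 0.314, 0.301, and 0.278 with GSK591 and 0.587, 0.567, and 0.595 with MS023. These values may reflect a choice between exons rather than plain skipping, which was not tested. DMSO was near MS023 and both inhibitors near GSK591 (ΔΨ = -0.285 ± 0.0133, adjusted p = 1.18e-28). PRPF40B, a U1-associated protein, had 0.401, 0.501, and 0.487 against 0.874, 0.739, and 0.830. SUGP2 had 0.335, 0.246, and 0.251 against 0.804, 0.796, and 0.689 for an exon of its untranslated region. EWSR1, of the FET family, kept an intron in 0.790, 0.810, and 0.783 of transcripts against 0.296, 0.385, and 0.247. The kinases PRPF4B (1, 1, and 1 against 0.615, 0.739, and 0.752) and SRPK2 (0.919, 0.927, and 0.935 against 0.751, 0.596, and 0.675) had exons higher with GSK591.

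In mRNA export, THOC6 of the THO complex kept a 100-nt intron in 0.409, 0.452, and 0.446 of transcripts against 0.0249, 0.0592, and 0.0358, which was rare with DMSO too (0.0632, 0.0839, and 0.0567). NCBP2, the small subunit of the cap-binding complex, had Ψ of 0.897, 0.930, and 0.844 against 0.648, 0.546, and 0.631 for the longer exon of an A5SS. In nonsense-mediated decay, SMG9 followed UPF3A with an MXE at 0.283, 0.357, and 0.323 against 0.474, 0.440, and 0.444 (adjusted p = 0.0327). That call was lost without GSK591 library a or c (0.0765 and 0.0542) and without MS023 library a, b, or c (0.181, 0.109, and 0.113).

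In mitosis genes 50 of 568 tested SE events were called lower with GSK591 and 16 higher, and in DNA repair genes 51 of 779 lower and 19 higher. Over all SE events 6.61% were lower and 3.51% higher, and the share in repair genes was near this background. The exons of MDM4 and CDC25C are shown as coding exons whose length does not keep the frame.
MDM4 exon, chr1:204506538-204506631, plus strand: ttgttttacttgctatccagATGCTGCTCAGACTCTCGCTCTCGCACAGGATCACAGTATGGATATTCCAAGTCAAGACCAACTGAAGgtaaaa
CDC25C exon, chr5:137665236-137665356, minus strand: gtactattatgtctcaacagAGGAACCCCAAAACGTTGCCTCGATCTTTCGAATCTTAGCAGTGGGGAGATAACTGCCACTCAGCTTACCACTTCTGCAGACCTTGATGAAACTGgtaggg

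MDM4, an inhibitor of p53 whose transcript without this exon encodes a short form, had Ψ of 0.527, 0.360, and 0.213 with GSK591 and 0.686, 0.778, and 0.897 with MS023. The groups did not overlap but GSK591 libraries varied, on 21 to 61 reads (ΔΨ = -0.42 ± 0.109, adjusted p = 1.05e-05), and DMSO (0.673, 0.780, and 0.805) was near MS023. CDC25C, a phosphatase that starts mitosis, had 0.325, 0.332, and 0.107 against 0.721, 0.766, and 0.777 (ΔΨ = -0.5 ± 0.0758, adjusted p = 3.43e-13). CDC25B, its relative, had 0.555, 0.542, and 0.505 against 0.809, 0.792, and 0.803 on over 1237 reads per library, with a 5′ splice site that matches at 4 bases. BNIP2, which binds BCL2, had 0.196, 0.161, and 0.201 against 0.387, 0.406, and 0.453. ERCC1, a nuclease subunit of nucleotide excision repair, had 0.334, 0.382, and 0.355 against 0.663, 0.616, and 0.684, and a RAD51D exon was higher with GSK591, with 0.552, 0.721, and 0.787 against 0.286, 0.139, and 0.283.

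Among genes with epithelial and mesenchymal forms, 25 of 28 tested genes had a call, beside 4216 of 10486 over all genes. These shares are not like for like, since the 28 genes had 480 tested events and the 10486 genes had 91717. More events per gene raise the chance of a call, and the part of this was not tested. Of 334 SE events tested in them, 34 were higher and 50 lower with GSK591, beside 3.51% and 6.61% over all SE events. The exon of EXOC7, which has different lengths of its product in epithelial and mesenchymal cells, is shown because it is coding and keeps the frame.
EXOC7 exon, chr17:74087218-74087336, minus strand: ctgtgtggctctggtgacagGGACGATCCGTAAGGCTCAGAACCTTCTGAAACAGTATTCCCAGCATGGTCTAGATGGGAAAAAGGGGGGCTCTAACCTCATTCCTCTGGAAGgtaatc

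EXOC7, a subunit of the exocyst, had 0.691, 0.583, and 0.563 against 0.159, 0.150, and 0.159, and DMSO lay between (0.384, 0.409, and 0.369). Inhibitor groups thus stood on either side of DMSO (ΔΨ = 0.456 ± 0.0397, adjusted p = 2.15e-23). CTNND1, p120 catenin of cell junctions, had 0.662, 0.729, and 0.713 against 0.402, 0.372, and 0.382 on 240 to 806 reads, with DMSO (0.674, 0.693, and 0.617) near GSK591 (ΔΨ = 0.316 ± 0.0219, adjusted p = 1.8e-22). The largest ΔΨ of a called event in CD44, CD46, FN1, and NUMB was 0.463, -0.273, 0.297, and -0.274. Called events went both ways in CD44 (4 higher and 9 lower with GSK591), CD46 (1 and 10), and FN1 (7 and 1). The 2 of NUMB were lower.

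The same comparison was made between GSK591 and MS023 libraries at 4 days, which are separate libraries. Of the events tested at both times, 14.6% of SE, 11.6% of MXE, 14.4% of A3SS, 28.7% of A5SS, and 45.8% of RI were called at 4 days. Of 6322 SE events called at 2 days and tested at both times, 95.3% had the same sign at 4 days. The share over all SE events tested at both times was 67.2%. Of the 6322, 4202 were called again in the same direction, which is 66.5% of the 2-day and 49.4% of the 4-day calls. In the opposite direction 12 were called. The same sign was found for 98.4% of 491 MXE, 96.9% of 477 A3SS, 96.8% of 761 A5SS, and 98.8% of 1294 RI called at 2 days, against 63.2%, 65.5%, 74.4%, and 80.5% of all tested.

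**Figure D4:**
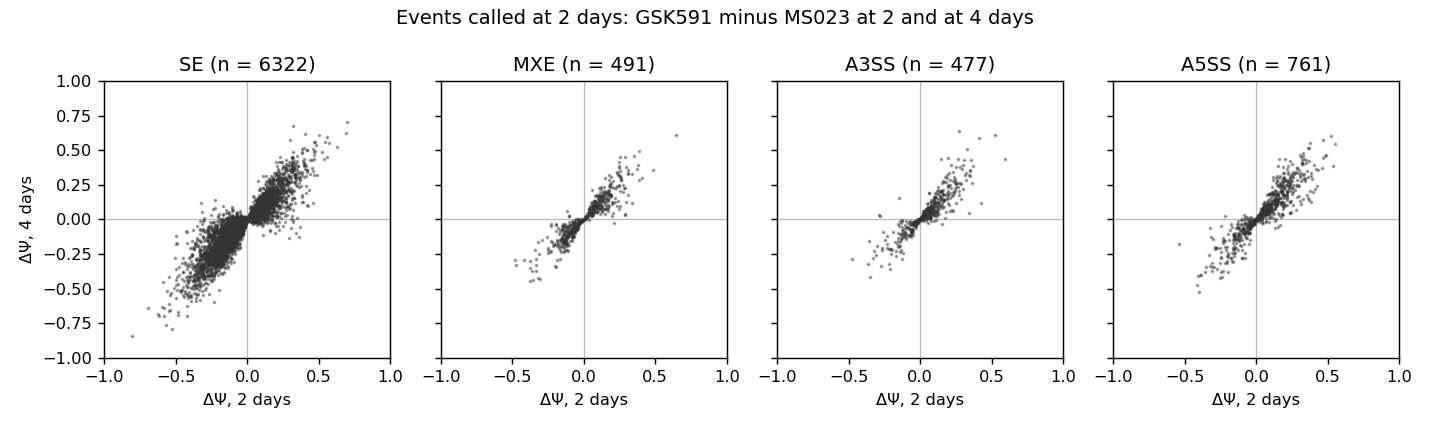
ΔΨ (GSK591 minus MS023) at 2 days (x axis) and at 4 days (y axis) for each event called at 2 days and tested at both times, 1 point per event, in a panel each for SE, MXE, A3SS, and A5SS (RI is not plotted). In these panels 95.3% (SE) to 98.4% (MXE) of the points lie in the quadrants of equal sign.

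Median differences of the called SE events were 0.0759 at 2 days and 0.0587 at 4 days for those higher with GSK591, and -0.0833 and -0.0693 for those lower. For single events the values at 4 days are given beside those at 2 days, and none of those named next was shown to change between the times. The MDM4 exon had Ψ of 0.200, 0.113, and 0.173 with GSK591 and 0.764, 0.873, and 0.934 with MS023 at 4 days (ΔΨ = -0.695, adjusted p = 1.61e-11; interaction adjusted p = 0.578), and CACNA1G had 0.181, 0.173, and 0.181 against 0.969, 0.922, and 0.939 (ΔΨ = -0.765, adjusted p = 9.4e-18; interaction adjusted p = 0.572). PRPF4B was not called at 4 days (ΔΨ = 0.108, adjusted p = 0.284), with an interaction adjusted p of 0.631. FNBP1 was not called either (ΔΨ = -0.158, adjusted p = 0.113), and its change was not tested, since the interaction was fitted for SE events only. The WHSC1 and SMG9 MXE, the OSBPL7 A3SS, and the PPP4R1L intron also lacked a call at 4 days (adjusted p = 0.0588, 0.0962, 0.314, and 0.178). Their ΔΨ was -0.296, -0.0832, 0.116, and -0.149, and their change was likewise not tested. Whether a difference between inhibitors changed from 2 to 4 days was tested for 58313 SE events by an interaction term. It changed in 5 events (0.00857%), while 4738 had an unadjusted p under 0.05. These 5 were SPP1, UQCRH, MRPL33, SRSF6, and PCBP2, and their number depended on single libraries. It was 6 without any 1 GSK591 library of 2 days, 1 without MS023 library a or c and 4 without library b of 2 days, 3, 2, and 3 without GSK591 library a, b, or c of 4 days, and 1, 3, and 2 without MS023 library a, b, or c of 4 days.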

How the data were processed

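Poly(A)-RNA from A549 cells was trimmed with Trim Galore 0.6.5 and aligned to hg19 with STAR 2.4.2a, as the submitters' processing notes and the study's methods state, and splicing events were counted with rMATS against DMSO. In the tables the authors deposited, whole-number inclusion and skipping counts of the 3 libraries of a group share 1 cell, are not normalized, and take in reads inside the alternative segment. Longer forms can therefore gain reads from retained introns. Effective lengths and the authors' own Ψ, differences, p-values and FDR values stand beside them, and the latter were not used. In the tables used, 6 count columns, the DMSO columns repeated in the 4-day and combined-treatment tables, were not used either. The library order carries no replicate numbers, so libraries are called a, b, and c. Nothing states that replicates were separate cultures, so p-values measure the spread between these libraries, which may be technical.

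Shared events had the same effective lengths and DMSO counts in both tables (0 differed). Ψ was computed from counts divided by effective lengths. Each event with at least 10 reads in all 6 libraries was tested by a quasi-binomial model, with the dispersion moderated by squeezeVar of limma 3.58.1 (R 4.3.3) and held at 1 or above, an F test, and Benjamini-Hochberg adjustment within the event type. Events read in 1 form only (7621) were kept among those tested, as not called, and left out of the dispersion prior, which was settled after calls had been seen. On simulated counts all recovered changes had the right sign, most of the changed events other than MXE were missed, and the share of false calls was above the nominal level for SE and A5SS. Named events were called, had at least 20 reads in every library and groups without overlap, and were ranked by absolute ΔΨ: the first 5 SE and the first 3 of each other type in each direction, and the first 2 per gene list, with PKM as a check. One event that this rule names is not reported here. Members and lists were chosen with earlier results of these data known. Splice sites and sequences were read from GRCh37, where 99.95% of SE donors were GT, GC, or AT, with GENCODE annotation. The precision of Ψ is limited by read number, and ranges are given beside some of the events only. Of those without a range, the CCDC84 exon had 27 to 67 reads per library, CUL2 22 to 119, and ITGB1BP1 27 to 61. The UPF3A pair had 24 to 55, POLR2J3 21 to 62, the OSBPL7 A3SS 23 to 59, and ANKRD18A 20 to 45, so single values are coarse. Alternatives were limma on log2 odds with 0.5 added per count (also weighted by read number), other read minimums, a dispersion trend, adjustment over all types, no length division, and leaving out each library. Other experiments of the series were not analysed here.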

Additional observations from a re-analysis of the deposited data

Results flagged for a closer look

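The difference between GSK591 and MS023 changed from 2 to 4 days in 5 skipped exons, by the interaction term of the quasi-binomial model (Benjamini-Hochberg over 58313 SE events). They are given here because the test was of the change itself. Values are the ΔΨ at 4 days minus that at 2 days.

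MRPL33, a protein of the mitochondrial ribosome, had the largest change, at -0.177 (interaction adjusted p = 0.00606). It was not called at 2 days (adjusted p = 0.111), when its groups overlapped. Its exon had Ψ of 0.748, 0.719, and 0.741 with GSK591 and 0.791, 0.747, and 0.765 with MS023 at 2 days, and 0.560, 0.611, and 0.621 against 0.817, 0.799, and 0.802 at 4 days. PCBP2, a poly(C)-binding protein, changed by -0.0652 (0.00606), from 0.268, 0.270, and 0.279 against 0.640, 0.638, and 0.655 to 0.192, 0.192, and 0.177 against 0.621, 0.633, and 0.620. UQCRH, a subunit of respiratory complex III, changed by -0.0196 (0.0316) and had Ψ of at most 0.0612 in all GSK591 and MS023 libraries of both times.

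In SRSF6 the order of the inhibitors turned, while in SPP1 the groups overlapped at 2 days and GSK591 libraries were higher at 4 days. SRSF6, an SR protein, changed by 0.117 (0.00927), from 0.0949, 0.121, and 0.129 against 0.188, 0.158, and 0.158 to 0.186, 0.197, and 0.196 against 0.117, 0.139, and 0.133. SPP1, osteopontin, changed by 0.101 (0.0316), from 0.649, 0.680, and 0.629 against 0.683, 0.679, and 0.680, which was not called at 2 days (adjusted p = 0.121), to 0.761, 0.759, and 0.748 against 0.665, 0.694, and 0.688. The SPP1 exon was called at 2 days without GSK591 library b (0.0254). All 5 events had many reads, at least 879 in each 2-day library. Outliers were not looked for, since groups of 3 are too small.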

How the results depend on the processing

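With other read minimums (at least 1 or 20 reads) counts stayed close to those reported. The test changed them more: limma on log2 odds called 64 SE, 201 MXE, 0 A3SS, and 270 A5SS events. Weighted by read number it called 3441 SE and 285 A3SS. A dispersion trend called 869 MXE. Leaving out 1 library gave 3324 to 4929 SE, 247 to 669 MXE, and 315 to 421 A3SS calls, and 1 to 6 for the change from 2 to 4 days. Weighting, the dispersion trend, and leaving out events read in 1 form only were chosen after seeing the data. Under the settings other than limma on log2 odds, 555 to 806 A5SS were called, and under all settings run 970 to 1392 RI. The share of calls higher with GSK591 ranged from 25.0% to 34.9% for SE, 66.3% to 71.2% for A3SS, 65.6% to 70.4% for A5SS, and 89.2% to 91.9% for RI, but from 41.1% to 59.2% for MXE. Without division by effective length the median ΔΨ of called events was 0.13 in place of 0.0904 for RI, -0.0219 in place of -0.0301 for SE, and 0.0498 in place of 0.0445 for A5SS. Of 59 named calls, limma on log2 odds lost 40, its weighted form 7, the dispersion trend 1, adjustment over all types 1, and leaving out single libraries 6 in all. The planned edgeR alternative was not run. No paired analysis was possible because the columns carry no replicate numbers. Depth limits events read few times, and the cause of the differences between tests was not tested.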
